A study of Mus musculus with 11 samples.

Results

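RFX3-only regions between genes are stretches of mouse chromatin that only the RFX3 list of peaks covered, with a summit outside every protein-coding gene and over 1 kb from the ends of all of them. They were found by merging the peaks of 3 lists, those of RFX1, RFX2 and RFX3, wherever peaks shared at least 1 bp. The rule kept 1893 of 11236 merged regions; 1666 further RFX3-only regions had their summit inside a gene and 229 at a gene end. The peaks came from chromatin immunoprecipitation and sequencing (ChIP-seq) in ependymal cells that had been differentiated ex vivo from the lateral brain walls of wild-type OF1 mice. All samples had this genotype and no treatment group; the labels call the tissue embryonic and give an age of P0. There were 6 ChIP samples, 2 for each RFX, and 5 input samples, of which RFX3 had 1, for its replicate 2, and the other RFX 2 each. The RFX2 antibody lot differed between its replicates. The replicates of each RFX had been combined into 1 list before deposit, so no replicate error can be given, and the read depth behind the lists is unknown. No expression was measured, so the cell type could not be checked against its markers.

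The RFX family recognises DNA through a winged-helix domain and binds the X-box, an element made of a pair of inverted arms, as dimers. RFX2 and RFX3 are known for switching on genes of the cilium, and ependymal cells, which line the brain ventricles, carry many motile cilia. Sites of transcription factors that lie between genes are often enhancers, and the gene that an enhancer serves need not be the nearest one. A region named here after its nearest protein-coding gene is therefore described by position only. Absence of an RFX1 or RFX2 peak means that none was called there, which does not show that the factor was absent.

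The letters under a part of these regions could be read where the summit lay in the promoter window of a long non-coding RNA (lncRNA) gene, from 250 bp before to 50 bp after the annotated start. That held for 30 of the 1893 regions, with 31 windows of 300 bp, and all of these windows belonged to lncRNA genes. The windows printed here are the 4 with the highest RFX3 peak significance and all 5 that hold a full X-box. They are RefSeq sequences of GRCm38.p6, read 5′ to 3′ along the gene's strand. Capitals mark letters of a full X-box or of its arms GTTGCC and GTTACC, found on either strand. Gm20743 and Gm30228 hold no such match.
Gm20743, chr1:164862871-164863170, plus strand: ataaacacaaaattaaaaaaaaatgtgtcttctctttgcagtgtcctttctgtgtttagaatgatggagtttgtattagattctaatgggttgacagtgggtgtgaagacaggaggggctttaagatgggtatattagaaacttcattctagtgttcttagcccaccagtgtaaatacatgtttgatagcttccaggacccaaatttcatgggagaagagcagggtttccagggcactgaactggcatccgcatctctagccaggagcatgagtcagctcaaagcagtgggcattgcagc
Gm34358, chr6:55154179-55154478, plus strand: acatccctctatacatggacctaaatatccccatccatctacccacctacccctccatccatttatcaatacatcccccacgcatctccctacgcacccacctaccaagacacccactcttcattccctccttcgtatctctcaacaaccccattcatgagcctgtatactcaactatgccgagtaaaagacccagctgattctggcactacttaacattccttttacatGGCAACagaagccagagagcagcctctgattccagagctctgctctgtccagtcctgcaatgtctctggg
Gm30228, chr10:27809667-27809966, minus strand: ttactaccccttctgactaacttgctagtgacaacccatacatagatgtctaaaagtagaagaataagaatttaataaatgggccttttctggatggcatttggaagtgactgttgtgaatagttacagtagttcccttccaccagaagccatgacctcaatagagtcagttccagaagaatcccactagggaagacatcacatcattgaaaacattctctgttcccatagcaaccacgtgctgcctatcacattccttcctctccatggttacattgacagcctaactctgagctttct
Gm32237, chr3:56698172-56698471, plus strand: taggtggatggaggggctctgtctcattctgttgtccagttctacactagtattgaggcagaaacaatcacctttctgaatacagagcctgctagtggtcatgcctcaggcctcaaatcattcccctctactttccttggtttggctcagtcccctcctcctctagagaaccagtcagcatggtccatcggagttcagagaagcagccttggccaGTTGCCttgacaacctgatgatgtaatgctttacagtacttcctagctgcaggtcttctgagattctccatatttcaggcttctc
Gm32556, chr5:65918705-65919004, minus strand: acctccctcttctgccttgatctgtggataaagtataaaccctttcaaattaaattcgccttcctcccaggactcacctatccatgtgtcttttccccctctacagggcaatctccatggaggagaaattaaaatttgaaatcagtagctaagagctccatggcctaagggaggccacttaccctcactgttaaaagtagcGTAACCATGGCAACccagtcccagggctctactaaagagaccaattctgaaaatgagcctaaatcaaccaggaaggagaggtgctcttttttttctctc
Gm41069, chr13:113225918-113226217, minus strand: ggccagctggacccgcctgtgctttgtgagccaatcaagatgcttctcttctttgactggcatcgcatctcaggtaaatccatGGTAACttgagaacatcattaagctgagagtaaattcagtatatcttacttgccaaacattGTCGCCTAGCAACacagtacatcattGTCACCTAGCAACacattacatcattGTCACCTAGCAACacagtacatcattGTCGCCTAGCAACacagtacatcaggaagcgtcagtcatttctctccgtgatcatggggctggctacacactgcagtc
Gm12299, chr11:67001836-67002135, plus strand: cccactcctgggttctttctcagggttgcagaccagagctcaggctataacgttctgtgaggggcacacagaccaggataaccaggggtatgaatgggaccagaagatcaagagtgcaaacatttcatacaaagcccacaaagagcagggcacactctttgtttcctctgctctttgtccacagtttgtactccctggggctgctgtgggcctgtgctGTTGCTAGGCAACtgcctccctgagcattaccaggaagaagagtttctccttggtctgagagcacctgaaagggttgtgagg
Gm34201, chr15:84627390-84627689, minus strand: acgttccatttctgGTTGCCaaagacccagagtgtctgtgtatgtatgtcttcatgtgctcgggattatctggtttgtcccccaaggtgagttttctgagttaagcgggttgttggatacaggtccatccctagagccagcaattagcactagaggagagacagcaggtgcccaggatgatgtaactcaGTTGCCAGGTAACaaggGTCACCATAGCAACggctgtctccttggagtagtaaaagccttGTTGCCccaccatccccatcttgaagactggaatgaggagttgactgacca
1700029J03Rik, chr16:93458823-93459122, minus strand: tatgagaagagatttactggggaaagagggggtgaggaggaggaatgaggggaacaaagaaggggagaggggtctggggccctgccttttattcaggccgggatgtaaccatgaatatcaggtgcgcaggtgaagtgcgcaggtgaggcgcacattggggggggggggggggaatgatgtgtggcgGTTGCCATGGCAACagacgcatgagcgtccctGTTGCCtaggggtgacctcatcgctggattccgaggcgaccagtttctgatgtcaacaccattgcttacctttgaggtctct

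Other regions lay near microRNA genes. The mature sequences below, from RefSeq, are those of the well-known microRNAs whose hairpin lay within 10 kb of an RFX3-only summit with a −log10 q over 15, and their seeds, bases 2 to 8, are in capitals. They were picked after the values were seen. The seed ACCCGUA is shared by miR-99a-5p and miR-100-5p, and GGAAGAC by miR-7a-5p and miR-7b-5p.
miR-99a-5p: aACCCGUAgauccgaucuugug
miR-100-5p: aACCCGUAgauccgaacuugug
let-7c-5p: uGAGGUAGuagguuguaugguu
miR-125b-5p: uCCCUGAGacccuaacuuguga
miR-9-5p: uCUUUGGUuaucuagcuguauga
miR-7a-5p: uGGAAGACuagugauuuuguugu
miR-7b-5p: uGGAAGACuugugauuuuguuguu

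Among RFX3 peaks, the RFX3-only regions between genes were mostly weak ones. The regions were chosen by the presence of an RFX3 peak call and the lack of RFX1 and RFX2 calls, so values of these calls are a description. Each region held 1 RFX3 peak. The −log10 q of the authors' peak calling, in which a larger value is a more significant peak, ran from 8.87 to 112 with a median of 13.7, and the quartiles were 10.7 and 18.7. The fold enrichment of the peak over background ran from 2.54 to 30.6 with a median of 7.45, and the width from 150 to 1005 bp with a median of 230 bp. For the 1567 regions between genes that held RFX1 and RFX3, the medians of the RFX3 peak were 24.9 for −log10 q, 8.79 for fold and 272 bp for width. With RFX3-only regions inside genes, the medians were close to those between genes, at 13.01, 7.35 and 222 bp.

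Their share rose steadily down the RFX3 list. When the 9318 RFX3 peaks were ranked by −log10 q and split into 10 nearly equal parts, 13 of 932 peaks in the best part (1.39%) belonged to RFX3-only regions between genes. In the last part, 375 of 932 (40.2%) did. The weakest RFX3 peaks had a −log10 q of 8.87, whereas the RFX1 list stopped at 12.03 and the RFX2 list at 18.2, so the lists ended at different strengths. What part this plays in the RFX3-only class was not tested. With only the 1250 most significant peaks of every list, as many as RFX2 has, regions were classed anew. This setting gave 169 RFX3-only regions between genes, with a median −log10 q of 65.9 and a median distance of 29012 bp to the nearest gene end. The best part of the RFX3 list held 13 of the 1893 regions and the next part 29, so most of the 169 were not among the 1893. At full length they had overlapped RFX1 peaks that the cut removed from a list of 7440.

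**Figure D1:**
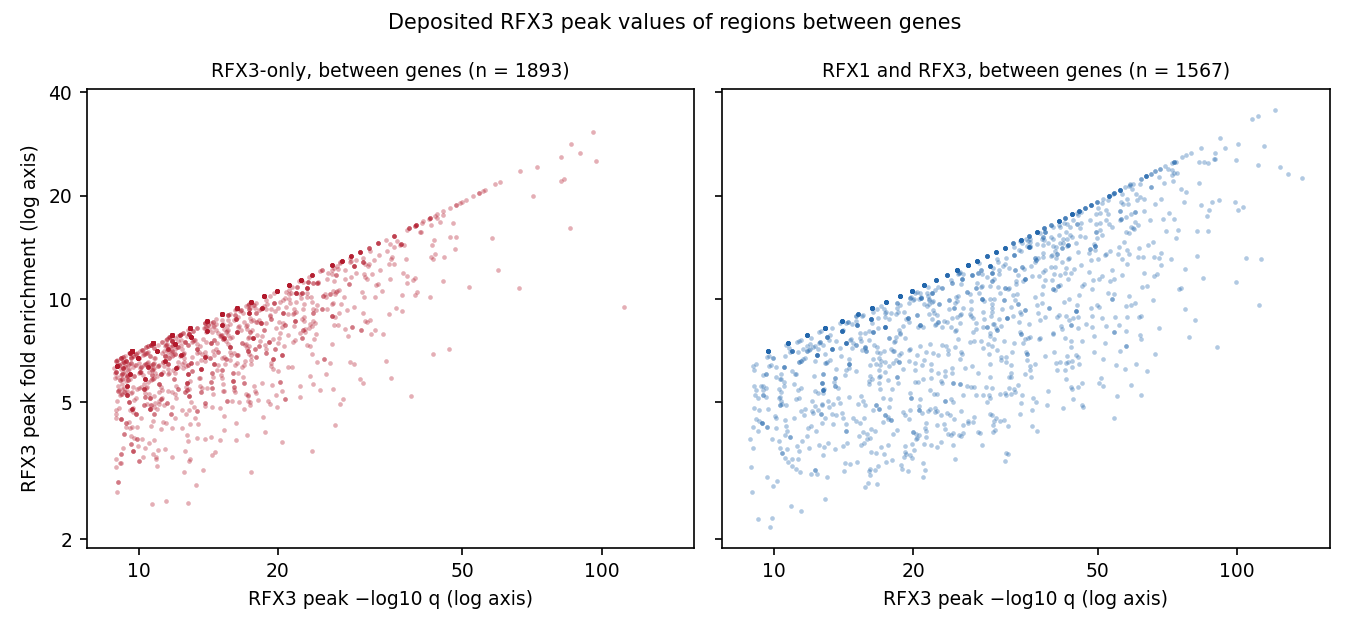
RFX3 fold enrichment (y, log axis) against RFX3 −log10 q (x, log axis), as deposited, for RFX3-only regions (left, 1893 regions) and regions with RFX1 and RFX3 (right, 1567 regions) between genes, 1 point a region. The RFX3-only points crowd at the lower left, with medians of 13.7 and 7.45, and many points of both panels share an upper edge of evenly spaced values.

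Many of these peaks shared exactly the same pair of values. A fold of 7.06 with a −log10 q of 9.69 occurred in 118 of the 1893 regions (6.23%), and a fold of 7.45 with a −log10 q of 10.7 in 105 (5.55%). The regions held 843 distinct pairs. Along the upper edge of the plot of fold against −log10 q, folds were whole multiples of 0.392: the commonest pair stood at the multiple 18 and the next at 19. Within 0.002 of a whole multiple lay 689 of the RFX3-only regions between genes (36.4%, exact 95% Clopper-Pearson interval 34.2 to 38.6). The same held for 391 of the regions with RFX1 and RFX3 (24.95%, 22.8 to 27.2) and for 487 of the RFX3-only regions inside genes (29.2%, 27.1 to 31.5). This description was made after the values were seen; such intervals cover the counting of regions only.

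The strongest region lay near Dand5, an antagonist of the Nodal signal that sets left-right asymmetry, at chr8:84810957-84811304. Its −log10 q was 112 and its fold 9.47, which placed it at rank 184 of the RFX3 list, and its summit stood 4299 bp from the gene end. Its nearest RFX1 peak was 98169 bp away, close to the median gap of 97229 bp over all RFX3-only regions between genes. The second was 393036 bp from Prl5a1, a prolactin family gene, at chr13:28544461-28544877, where −log10 q was 97.4 and fold 25.3. The highest fold, 30.6, was that of a region 772125 bp from Cenpc1, which encodes a centromere protein, at chr5:85239537-85240123, with a −log10 q of 95.8. C1qtnf7, a gene of a secreted protein, had a region 2359 bp from its end with −log10 q 89.6 and fold 26.6.

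The next 7 by −log10 q spanned 71.1 to 85.9. Calcoco1, which encodes a coiled-coil protein, had a region at 85.9 with a fold of 28.2, and Lrrc74a, a leucine-rich repeat gene, had one at 85.3 with a fold of 16.1. The Lrrc74a region was the only one of these leading 11 with an RFX1 peak within 10 kb, at 3741 bp. Gm15266 and Phf8, a histone demethylase gene, are both on chromosome X, with regions at 83.1 and 81.6. Cpeb2, which encodes a protein that binds the ends of messenger RNA, had a region at 81.8 with a fold of 26.0. A pair of receptor genes followed, the galanin receptor gene Galr1 at 72.4 and the endothelin receptor gene Ednra at 71.1.

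At full list length, RFX3-only regions lay farther from protein-coding genes than the other regions between genes. Their median distance to the nearest gene end was 53361 bp, against 34963 bp for regions with RFX1 and RFX3 and 34147 bp for the 646 regions with RFX1 only. Over 100 kb from any gene end lay 658 of the 1893 (34.8%, 32.6 to 37.0), 409 of the 1567 with RFX1 and RFX3 (26.1%, 23.9 to 28.4) and 181 of the 646 with RFX1 only (28.0%, 24.6 to 31.7). The odds ratio was 1.51 against regions with RFX1 and RFX3, with an adjusted p of 2.57e-07 by a two-sided Fisher's exact test with Benjamini-Hochberg adjustment over 6 tests. Against RFX1-only regions it was 1.37, with an adjusted p of 0.00491 by the same test. Regions are not replicates, so these p-values describe these lists.

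Settings of peak strength changed the call. Among regions with an RFX3 −log10 q from 10 to 20, 384 of 1166 RFX3-only regions (32.9%) and 155 of 550 with RFX1 and RFX3 (28.2%) lay over 100 kb from a gene end. The odds ratio there was 1.25, with an adjusted p of 0.205 by Fisher's exact test, so the call was lost with the same direction; odds ratios were not tested against each other. In the better 50% of each class, the shares were 34.0% and 24.1%, with an odds ratio of 1.62 and an adjusted p of 4.12e-05 by the same exact test. These parts were taken within each class, whose median −log10 q values were 13.7 and 24.9, so they were not matched in strength. Against RFX1-only regions, the call was lost when a margin of 5 kb in place of 1 kb set what lies between genes, with an odds ratio of 1.25 and an adjusted p of 0.0991 by the exact test. With lists of 1250 peaks, a setting added after the values were seen, regions were classed anew. Most of the 169 RFX3-only regions it gave were not among the 1893. The median distance was 29012 bp for these 169, 31348 bp for 22 with RFX1 and RFX3 and 18239 bp for 53 with RFX1 only. Of these, 37 (21.9%), 3 (13.6%) and 6 (11.3%) lay over 100 kb from a gene end, and neither odds ratio, 1.78 and 2.20, passed Fisher's exact test (adjusted p 0.866 and 0.668).

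**Figure D2:**
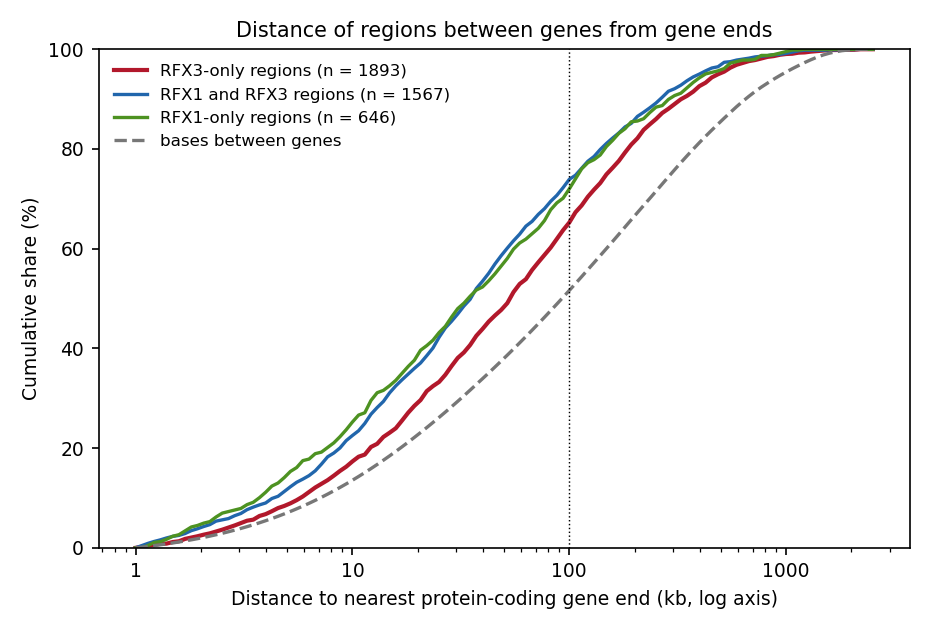
Cumulative share (y, percent) of regions between genes by distance to the nearest protein-coding gene end (x, kb, log axis), with the bases between genes as a dashed line and a dotted line at 100 kb. At 100 kb the RFX3-only curve lies below both other classes and above the bases: 34.8% of its regions and 48.4% of bases lie beyond that distance.

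At 100 kb and 50 kb, RFX3-only regions were nearer to genes than the sequence between genes itself. Of 1624 Mb between protein-coding genes, 48.4% lay over 100 kb from a gene end and 62.0% over 50 kb, whereas 34.8% and 51.6% of RFX3-only regions did. Per Mb of this sequence there were 1.17 RFX3-only regions and 0.965 regions with RFX1 and RFX3. All bases were counted, whether or not reads could be placed on them. They include 87.9 Mb of chromosome Y, which held no region of either class. Within 1 Mb of a gene end lay 95.4% of the bases between genes, 99.0% of RFX3-only regions and 99.2% of regions with RFX1 and RFX3. Gene deserts were sparse but not empty: 18 RFX3-only regions lay over 1 Mb from any gene end. The farthest was 2131299 bp from Pcdh17, a protocadherin gene, where −log10 q was 42.6 and fold 17.3. Celf4, an RNA-binding protein gene, followed at 2082513 bp and Dsel, a gene of dermatan sulfate synthesis, at 1693956 bp, with −log10 q values of 28.4 and 16.3.

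At the limits of the rule, small shifts can decide membership. Just inside the 1 kb limit were regions 1044 bp from Cdc25a, 1046 bp from 4930579F01Rik and 1047 bp from Mipep, with −log10 q values of 19.2, 14.4 and 8.99. Cdc25a encodes a cell cycle phosphatase and Mipep a mitochondrial peptidase. Just outside it were RFX3-only summits 999 bp from an end of Gpr162, 999 bp from Ctsz and 995 bp from Snx13, with values of 17.2, 11.5 and 21.6. The 1 kb limit ran on both sides of an end, so any of these summits could lie inside its gene. On the side of overlap, RFX3-only regions came within 6 bp of an RFX1 peak near Cldn23, 58 bp near Otud1 and 85 bp near Ttc21b, with −log10 q values of 10.3, 9.01 and 10.7. The smallest overlaps that made a region RFX1 and RFX3 were 90 bp near Npvf, 114 bp near Oxgr1 and 119 bp near Ndfip2. Such near misses were few: 38 of the 1893 regions (2.01%) had an RFX1 peak within 1000 bp and 187 (9.88%) within 10000 bp, and the median gap was 97229 bp.

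A difference in crowding within 10 kb did not pass the test. A second region of any class lay within 10 kb of 313 RFX3-only summits (16.5%, 14.9 to 18.3) and of 289 summits with RFX1 and RFX3 (18.4%, 16.6 to 20.5), with an odds ratio of 0.876 and an adjusted p of 0.224 by Fisher's exact test. Within 50 kb the shares were 47.0% and 53.7%, and there the odds ratio of 0.766 passed the exact test with an adjusted p of 2.97e-04. It passed as well in the better 50% of each class (0.726, adjusted p 0.0280, exact test). Counting RFX1 or RFX2 peaks within 500 bp as shared gave 0.765 (adjusted p 0.00597, exact test). Every region that this setting moves between classes has a second region nearby by construction. The counts became 293 of 1873 and 310 of 1588, so that pass says nothing further on crowding. The nearest gene had an RFX3 summit of its own within 1 kb of an end for 150 RFX3-only regions (7.92%, 6.75 to 9.23) and for 111 with RFX1 and RFX3 (7.08%, 5.86 to 8.47). The odds ratio was 1.13 and the adjusted p 0.439 by Fisher's exact test.

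The regions were spread over many genes. A total of 1440 of 21883 protein-coding genes (6.58%) were nearest to at least 1 of them, of which 1115 had 1 region and 239 had 2. Regions with RFX1 and RFX3 also stood nearest to 400 of these genes, which is 27.8% of the 1440. Of the 1291 genes nearest to such regions it is 31.0%, beside the 6.58% of all genes nearest to an RFX3-only region. The length of sequence nearest to each gene was not taken into account in this overlap. The most regions, 10, were nearest to Cwc22, which encodes a splicing factor that links splicing to the exon junction complex. Meis1, a homeobox gene, had 6, and Castor2, a gene of the mTORC1 pathway, H2al1j, a histone variant gene, and Sox2 had 5 each. Counted with all genes of the table, non-coding ones included, as limits of what lies between genes, Cwc22 had 9, Castor2 5, and Meis1, H2al1j and Sox2 3 each. With lists of 1250 peaks, none of these 5 genes had any. Sox4, Sox6, Tnp1, Tns1 and Zfp608 also had 5 and are named because of that count, after it was seen.

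The Cwc22 regions formed a row, mostly on 1 side of the gene. One lay at −2.68 kb, on the side of lower coordinates, and the others at 16.6, 28.1, 30.0, 30.4, 34.4, 41.4, 58.1, 64.2 and 75.4 kb on the other side. Their −log10 q values ran from 9.70 to 26.7 with a median of 12.9, and their folds from 7.06 to 11.8. The one at 16.6 kb, chr2:77962455-77963459, was 1005 bp wide, the widest of all 1893. No region with RFX1 and RFX3 was nearest to Cwc22, in 0.175 Mb of sequence nearest to it. Cwc22 lies in a segment known to vary in copy number between mouse stocks; copy number in these cells, and its part in these peaks, was not tested.

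**Figure D3:**
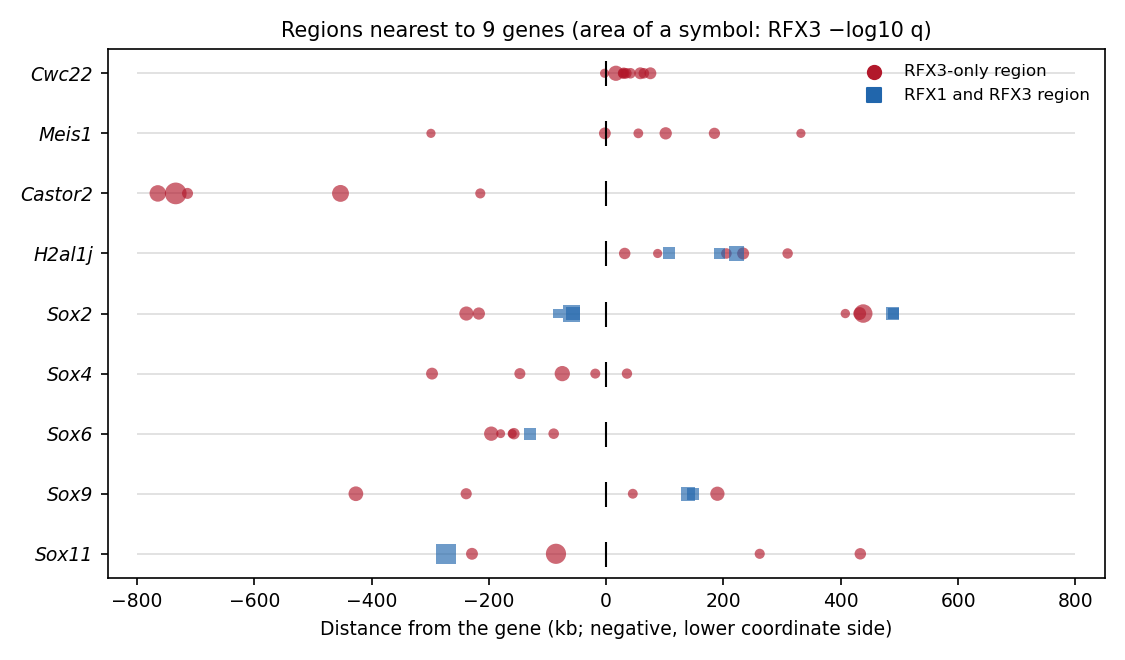
Position of RFX3-only regions (circles) and regions with RFX1 and RFX3 (squares) relative to 9 genes (y) whose end is the nearest, in kb from the gene (x, negative on the side of lower coordinates, black tick at the gene), with symbol area in proportion to RFX3 −log10 q. The 10 Cwc22 regions span 2.68 to 75.4 kb, those of Castor2 lie on 1 side only, and those of the Sox genes are scattered more widely.

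Around the other genes the regions were wider apart. Meis1 regions stood at −299, −2.20, 54.8, 102, 185 and 332 kb, with −log10 q values of 9.69 to 17.5. All 5 Castor2 regions lay on its lower side, at −764, −734, −714, −453 and −215 kb, with −log10 q values of 31.5, 54.3, 14.1, 32.8 and 11.7 in that order. The highest of them had a fold of 20.4. The H2al1j regions, on chromosome X, ran from 31.6 to 309 kb with −log10 q values of 9.70 to 16.6, and 3 regions with RFX1 and RFX3 lay among them, at 107, 193 and 222 kb.

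Sox genes encode transcription factors with a DNA-binding HMG box, and Sox2 and Sox9 maintain neural stem cells and glial progenitors. This family was singled out after the values were seen. RFX3-only regions were nearest to 7 of its 19 genes (36.8%, beside 6.58% of all genes), with 25 regions in all, or 4.91 per Mb against 1.17 over all genes. Regions with RFX1 and RFX3 were nearest to 9 of the 19, at 2.75 per Mb against 0.965. Sox2 had regions at −238, −217, 408, 432 and 438 kb. Regions with RFX1 and RFX3 near Sox2 stood closer to the gene on its lower side, at −81.7, −58.6 and −56.5 kb, and farther out on its upper side, at 489 and 490 kb. The strongest region of the family was at −85.6 kb from Sox11, with −log10 q 46.9 and fold 18.4. Sox9 had 4 regions, at −427, −239, 45.4 and 190 kb, the strongest with a −log10 q of 24.9. Sox4 had none with RFX1 and RFX3, and its 5 RFX3-only regions ran from 18.6 to 297 kb away with a highest −log10 q of 26.9. The 5 near Sox6 lay at −196 to −89.5 kb.

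By share of genes, those of cilia, the best known RFX targets, were nearest to these regions about as often as all genes. At least 1 region stood nearest to 5 of 64 genes of ciliary transport and the transition zone (7.81%, 2.59 to 17.3), 5 of 82 genes of the motile axoneme (6.10%, 2.01 to 13.7) and 3 of 34 genes of the multiciliated cell programme with the RFX genes (8.82%, 1.86 to 23.7), beside 6.58% of all genes. These shares were close to that of all genes. The median stretch nearest to a gene was 12.5, 7.95 and 13.9 kb, against 17.0 kb over all genes, and per Mb of such sequence there were 2.96, 1.38 and 1.65 regions, against 1.17 over all genes. The first density rests on 7 regions in 2.37 Mb. Densities were added after the values were seen and were not tested.

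In what follows, the value given for a gene of a list is the −log10 q of its strongest RFX3-only region. Among transport genes, Kifap3, which encodes the accessory subunit of the motor kinesin-2, had a region 10.6 kb from its end with −log10 q 22.4 and fold 11.4. Tmem17, a transition zone gene, had 3, the strongest 21.5 kb away at 19.9. Traf3ip1 and Ttc21b encode proteins of intraflagellar transport, and their regions stood 4.32 and 5.37 kb away at 15.4 and 10.7. For the axoneme, Tekt5, a tektin gene, had a region 2.82 kb away at 20.7, and Dnah7a, a dynein heavy chain gene, one at 6.09 kb with 12.9. Spef2, of the central pair apparatus, had a region 108 kb away at 12.9, and the radial spoke gene Rsph1 one at 5.53 kb with 11.1 (fold 5.06). In the multiciliated group, Foxa1, a forkhead gene, had a region 9.99 kb away at 19.9 and Gmnc, a regulator at the head of the multiciliated programme, one at 45.0 kb with 17.5. Rfx3 itself had a region 73.6 kb from its end, at chr19:28087934-28088409, with −log10 q 15.6 and fold 7.40.

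Glial genes made up the largest group by regions. Of 59 genes of radial glia, astroglia and ependyma, 19 (32.2%, 20.6 to 45.6) were nearest to an RFX3-only region, beside 6.58% of all genes, with 32 regions in 12.2 Mb, or 2.62 per Mb against 1.17 over all genes. Their stretches were long, with a median of 81.0 kb nearest to a gene against 17.0 kb over all genes. Regions with RFX1 and RFX3 were also denser there, at 2.13 per Mb against 0.965. Besides Sox2 and Sox9, the leading genes were Nr2f1, a nuclear receptor gene, at 452 kb with −log10 q 30.1 and fold 13.7, and Nfib, a gene of a nuclear factor I protein that promotes gliogenesis, at 83.1 kb with 28.0 and 11.4. Outside the rule for names, and chosen after their values were seen, are Slc1a3 and Vim. Slc1a3, the glial glutamate transporter gene, had 2 regions, the stronger at 12.01. Vim, the vimentin gene, had 1 at 2.01 kb with 15.2, whose summit was closer, at 776 bp, to an end of the lncRNA gene Gm9875. Other genes of the list outside the rule had stronger regions, among them Tnc (23.5) and Nr2f2 (21.1).

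**Figure D4:**
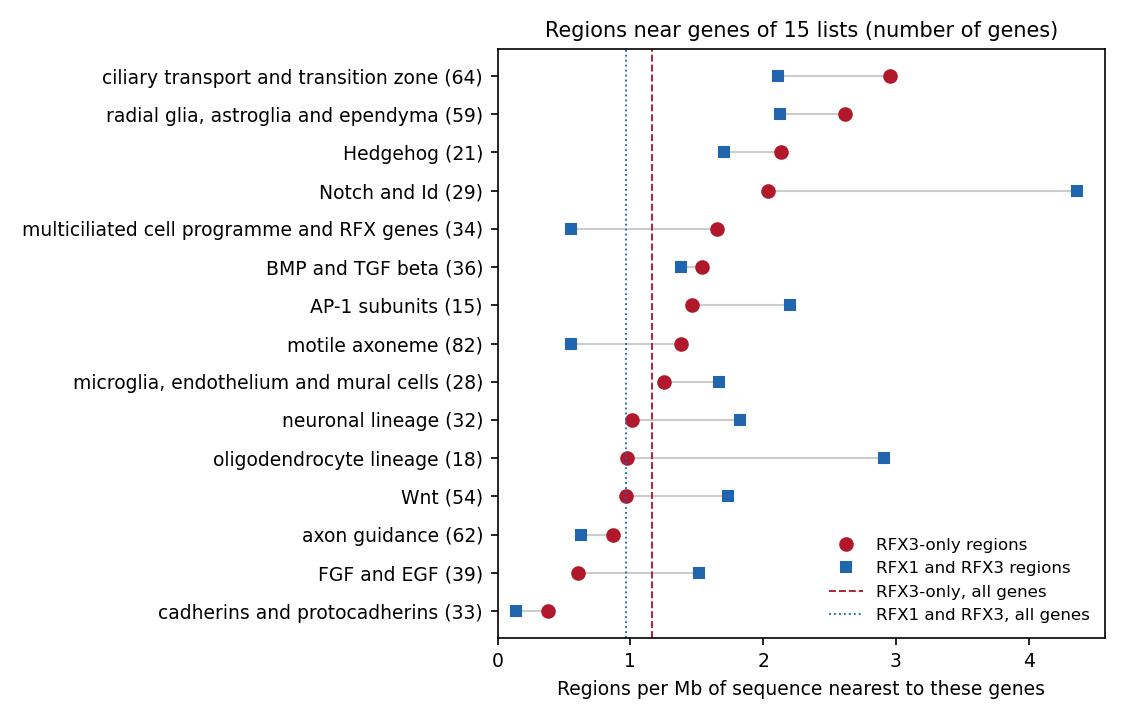
Regions per Mb (x) of the sequence nearest to the genes of each list (y, number of genes in brackets), for RFX3-only regions (circles) and regions with RFX1 and RFX3 (squares), with both values over all genes as vertical lines. RFX3-only regions were densest at the ciliary transport (2.96) and glial (2.62) lists and sparsest at the cadherins (0.378), beside 1.17 over all genes; the lists hold 1 to 32 such regions.

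By density, signalling lists varied around the 1.17 per Mb of all genes. By share of genes, each stood above the 6.58% of all genes, with exact intervals that included 6.58%. Their median stretches nearest to a gene, 26.4 to 76.0 kb, were longer than the 17.0 kb over all genes. Notch and Id genes had 7 RFX3-only regions at 5 of 29 genes (17.2%, 2.04 per Mb) and 15 regions with RFX1 and RFX3 (4.36 per Mb). Hes1, a repressor that acts downstream of Notch, led with a −log10 q of 27.5 at 70.3 kb, then Id4, an inhibitor of basic helix-loop-helix factors, with 23.8 at 233 kb, the receptor gene Notch3 with 10.9 and the ligand gene Jag1 with 10.7. Hedgehog genes had 5 regions at 3 of 21 genes (14.3%, 2.13 per Mb). These were the ligand gene Shh, the co-receptor gene Gas1 and the effector gene Gli3, with highest values of 10.97, 16.7 and 16.3. Genes of BMP and TGF beta signalling had 10 at 6 of 36 (16.7%, 1.54 per Mb). The ligand gene Bmp2 led with 17.5, then the receptor gene Tgfbr2 with 17.3, Bmp4 with 15.2 and Acvr2a with 11.8.

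For Wnt genes there were 5 regions at 5 of 54 (9.26%, 0.965 per Mb). Axin2, a feedback inhibitor, stood at 21.9 and the ligand gene Wnt5a at 21.1. The receptor gene Fzd8 followed at 19.1 and Wls, which carries ligands to the surface, at 15.6. The FGF and EGF list had 4 at 4 of 39 genes (10.3%, 0.607 per Mb). These were the ligand gene Nrg1 (36.1), the receptor genes Fgfr2 (35.1) and Fgfr3 (12.8) and the effector gene Etv5 (9.61). Jun and Fos were the only AP-1 subunit genes of 15 with a region (13.3%, 1.47 per Mb), at 17.5 and 10.1.

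Share and density ranked the lists in different orders. Cadherin and protocadherin genes had the highest share, with 13 of 33 genes (39.4%, 22.9 to 57.9) nearest to a region, and the lowest density, 0.378 per Mb, with a median of 1190 kb nearest to a gene. Pcdh17 (42.6), Cdh11 (21.9), Cdh20 (21.4) and Pcdh8 (21.3) led by −log10 q. Axon guidance genes had 18 regions at 12 of 62 (19.4%, 0.870 per Mb). The netrin gene Ntn4 led with 40.5, then the plexin gene Plxna2 and the Slit receptor gene Robo2 with 23.2 each, and the ephrin gene Efnb2 with 21.1. Lists of other brain cells, beside 6.58% of all genes and 1.17 regions per Mb, were as follows. The neuronal list had 5 regions at 4 of 32 genes (12.5%, 1.02 per Mb), near Bcl11b (44.8), Stmn2 (22.4), Map2 (17.5) and Dlx2 (13.3). The oligodendrocyte list had 1 region, near Olig1 (11.4), among 18 genes (5.56%, 0.971 per Mb). Microglia, endothelium and mural cells had 3 regions at Kdr (46.9) and Col1a2 (21.1), of 28 genes (7.14%, 1.25 per Mb).

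Non-coding genes lay close to a part of the regions. An end of a non-coding gene was within 1 kb of 153 RFX3-only summits (8.08%, 6.89 to 9.40), against 157 with RFX1 and RFX3 (10.02%, 8.58 to 11.6) and 55 with RFX1 only (8.51%, 6.48 to 10.9). Neither difference passed Fisher's exact test, with odds ratios of 0.790 and 0.945 and adjusted p of 0.0972 and 0.740. The genes were lncRNA genes for 120 of the regions and pseudogenes for 22. An end lay this close to a summit for 0.927% of all 12727 lncRNA genes and 0.221% of all 9944 pseudogenes. A summit lay inside a non-coding gene for 370 regions (19.5%, 17.8 to 21.4), beside 21.8% with RFX1 and RFX3 and 20.4% with RFX1 only. The strongest of those near an end was 1 bp from the start of Gm20743, with −log10 q 47.6 and fold 16.7. Gm36315 followed with 46.7, 4930452A19Rik with 42.9, Gm34358 with 42.7, Gm30228 with 42.3 and Gm32237 with 41.2. The other 6 of the leading 12 ran from 30.3 to 39.5 and were Gm52718, Vmn2r-ps35, a pseudogene of the pheromone receptors, Gm41730, Gm39258, Gm30906 and Gm33306.

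X-box letters were frequent in the promoter windows that held an RFX3-only summit. GTTGCC, on either strand, occurred in 16 of 30 (53.3%, 34.3 to 71.7), against 12.3% of all 11588 lncRNA windows, and in 13 of 44 windows with an RFX1 and RFX3 summit (29.5%, 16.8 to 45.2). GTTACC occurred in 8 of 30 and 8.22% of lncRNA windows, and the full X-box, with up to 3 bases between its arms, in 5 of 30 (16.7%, 5.64 to 34.7) and 1.57% of them. A full X-box can hold a single-arm match, so these counts overlap. Allowing 1 mismatch, as an addition made after the values were seen, put a full X-box in 20 of the 30 (66.7%, 47.2 to 82.7), in 26 of the 44 (59.1%, 43.2 to 73.7) and in 11.1% of lncRNA windows. Between RFX3-only windows and those with RFX1 and RFX3, neither GTTGCC (odds ratio 2.73, adjusted p 0.107) nor the exact full X-box (1.27, adjusted p 0.749) passed Fisher's exact test over this pair.

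For the 16 regions with GTTGCC the nearest copy was a median of 17.5 bp from the summit, and 14 were within 50 bp. For the 8 regions with GTTACC the median was 56.0 bp, and 3 were within 50 bp. The nearest full X-box was within 50 bp in 4 of 5 regions. The 1700029J03Rik window holds a fully palindromic X-box, in which GTTGCC and its inverted copy stand 2 bases apart, centred 2.5 bp from the summit, although its peak was among the weak ones, with −log10 q 9.25 and fold 3.68. Only 3 of the 11588 lncRNA windows hold this palindrome. The Gm41069 window holds 4 full X-boxes in a row, centred −31.0, −5.0, 21.0 and 47.0 bp from the summit, with −log10 q 27.5 and fold 12.9. The strongest window, that of Gm20743, holds none of these letters, and that of Gm30228 holds a full X-box only with 1 mismatch, centred 31.5 bp away. A match is a description of letters and no match says only that the letters are not in the window.

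**Figure D5:**
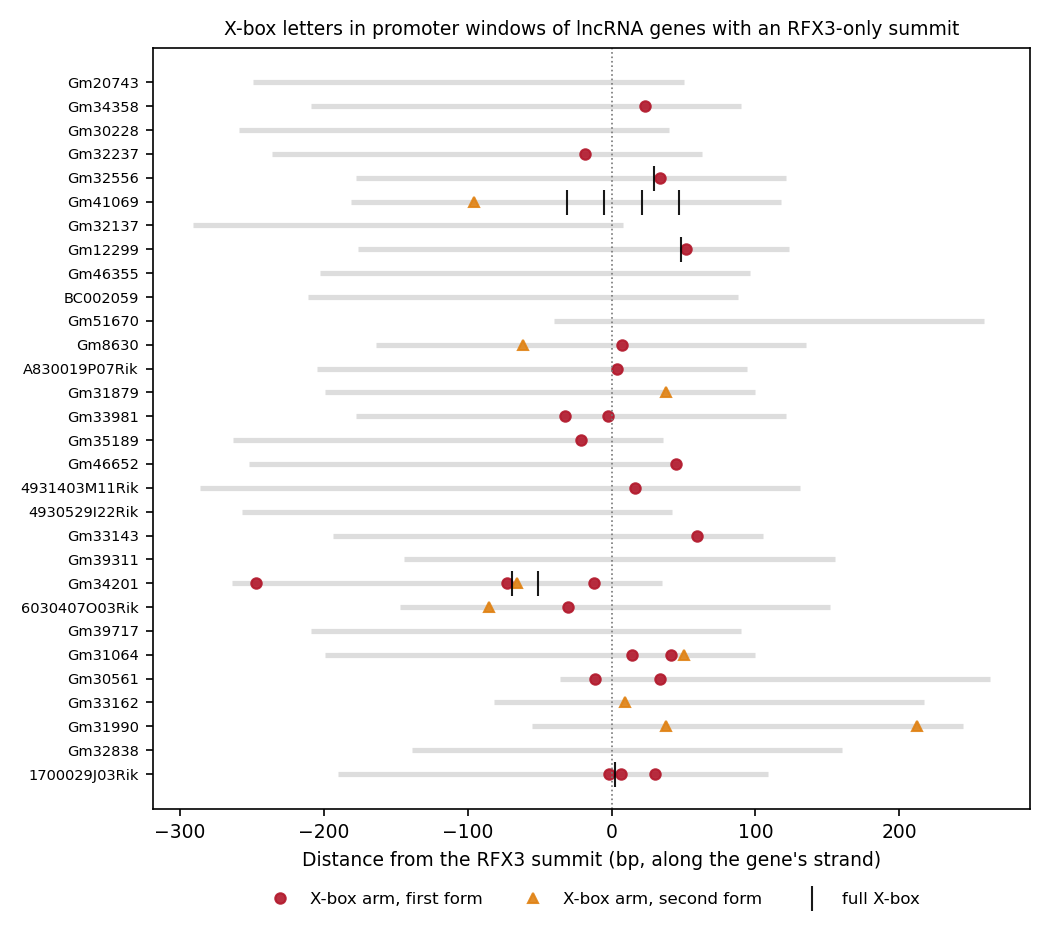
Matches to an X-box arm in its GTTGCC (circles) and GTTACC (triangles) forms and to the full X-box (bars), by distance of the match centre from the RFX3 summit (x, bp), in the promoter windows of 30 lncRNA genes (grey lines, ordered from the highest RFX3 −log10 q at the top; 4931403M11Rik has 2 overlapping windows drawn as 1). Most circles lie close to 0, and 14 of the 16 regions with the first form have a copy within 50 bp.

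Letters of other factors were searched on both strands in the same 30 windows. GGAATG, bound by TEAD factors, occurred in 11 (36.7%, 19.9 to 56.1; 16.6% of lncRNA windows) and in 8 of the 44 windows with RFX1 and RFX3. CAGCTG, an E-box, occurred in 5 (17.7% of lncRNA windows), TTGGCA, an arm of the nuclear factor I site, in 4 (16.0%), TAATTA, of homeodomain factors, in 2 (6.68%) and TGANTCA, of AP-1, in 1 (9.31%). The forkhead letters TGTTTAC, the inverted pair of SOX sites and the full nuclear factor I site occurred in none; 4.83%, 0.0431% and 0.0431% of lncRNA windows hold them. These counts were not tested.

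A total of 20 of 1005 microRNA hairpins (1.99%) lay within 10 kb of an RFX3-only summit, for 17 regions, and 14 (1.39%) lay within 10 kb of a region with RFX1 and RFX3. The strongest of these regions stood 4949 bp from Mir99a and 5670 bp from Mirlet7c-1, with a −log10 q of 32.3, at chr16:77593874-77594125, and 477 kb from the nearest protein-coding gene end. Mir9-1, whose microRNA is abundant in neural progenitors, had a region at 6151 bp with 23.8. Mir7-2 had 2 regions, at 5798 and 3970 bp with 22.3 and 16.7, and Mir7b had 1 at 8217 bp with 15.3, so both microRNAs of the seed GGAAGAC had a region near a hairpin. On chromosome 9, Mir125b-1 had a region at 2070 bp with 18.2, inside the promoter window of the lncRNA gene Gm51670, and Mir100 one at 6585 bp with 17.7. Mir99a and Mir100, of the seed ACCCGUA, thus each had 1.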

How the data were processed

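Peaks were used as the authors deposited them, in 3 lists of reproducible peaks merged over replicates. Bowtie 0.12.7, CASAVA 1.8.2 and MACS2 2.0.10.20130520 appear in the submitters' processing notes, without roles, with build GRCm38. How peaks were judged reproducible is not stated there. The deposited fold enrichment was read as a ratio of ChIP signal over background, and the deposited −log10 q as the peak caller's q-value. The deposited score entered no result, and 3 deposited columns of −log10 p, 1 a list, were not read. Peak values belong to the authors' calling and only describe peaks here.

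Peaks sharing 1 bp were merged with Python 3.11.15. Genes were 21883 protein-coding and 28056 non-coding entries of a RefSeq table of GRCm38.p6, which gives no strand. Shares were compared with two-sided Fisher's exact tests (SciPy 1.17.1), adjusted over 6 tests at a threshold of 0.05; steps were tested on simulated data. Depth is unknown, so precision is limited to counting. Of 603 genes in 15 lists, 600 matched. Members, lists and tests were chosen with earlier results of these data known. Named genes were the nearest to the 12 strongest, 3 farthest and 3 most marginal regions, those closest to RFX1 peaks, the 5 with most regions, up to 4 per list, and non-coding genes at the 12 strongest regions near their ends; other names are stated as chosen later. One of the 12 strongest is not reported here. Alternatives changed the margin, overlap, peak choice, list length, fold and windows. Motif tests around all summits were not run.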

Additional observations from a re-analysis of the deposited data

How the results depend on the processing

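With each list cut to the best 1250 peaks and regions classed anew, 169 RFX3-only regions between genes were nearest to 166 genes. Most of them were not among the 1893. Their medians were 65.9 for −log10 q, 19.0 for fold, 345 bp for width and 29012 bp for distance. With a margin of 5 kb the median distance was 63841 bp, and the odds ratio for lying over 100 kb from a gene against RFX1-only regions was 1.25 (adjusted p 0.0991, Fisher's exact test). With −log10 q from 10 to 20 it was 1.25 against RFX1 and RFX3 regions (adjusted p 0.205, exact). The odds ratio for a second region nearby passed the exact test in the better 50% of each class (0.726, adjusted p 0.0280) and within 50 kb (0.766, 2.97e-04). With RFX1 or RFX2 peaks within 500 bp counted as shared it was 0.765 (adjusted p 0.00597, exact). Regions moved by that setting have a second region nearby by construction, so this pass says nothing further on crowding. In the better 50%, the odds ratio for a non-coding end against RFX1-only regions turned to 1.09 (adjusted p 0.817, exact), uncalled as before. With 1250 peaks a list, added after the data were seen, that odds ratio was 1.19 (adjusted p 1.0, exact), those for lying over 100 kb from a gene were 1.78 and 2.20 (0.866 and 0.668), and the test of bound nearest genes gave no value, with 0 such regions in both classes. In 64 other alternatives, these summaries and tests kept their direction and side of the threshold or stayed within the limit set for a count; of values for single genes or sets of genes, 122 did and 33 moved. The cause of these shifts was not tested. Counting all genes of the table leaves no lncRNA promoter window, by construction. The 3 motif tests around summits, and their 50 bp alternative, were not run. No paired analysis was possible because the replicates of each RFX were combined before deposit; for the same reason no replicate could be left out.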

Other observations

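RFX3-only regions between genes were unevenly spread over the chromosomes. Chromosome 9 held the most per Mb between genes, 1.93, or 123 regions, and chromosome X the fewest of those with any, 0.300, or 37 regions. Chromosome Y held none. Regions with RFX1 and RFX3 were also densest on chromosome 9, at 1.52 per Mb, and sparse on X, at 0.373. These densities were not tested.

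Some regions lay in clusters, in which each summit stood within 10 kb of the next, so a cluster could span more than 10 kb. There were 66 such clusters with 140 RFX3-only regions (7.40%), of which 6 had 3 or more. The largest, near Cwc22, held 5 regions over 13.3 kb. Clusters of 3 stood near Tns1, which encodes the adhesion protein tensin, over 9.27 kb, near Egln3, an oxygen-sensing prolyl hydroxylase gene, over 5.95 kb with a highest −log10 q of 39.1, and near Mtss1 over 16.0 kb. Apod, an astroglial lipocalin gene, had 3 within 2.59 kb, and Cavin4, a caveolar protein gene, had 3 over 9.74 kb with −log10 q values of 19.9 to 39.5. These genes were named after their values were seen.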
